A study of Xenopus laevis with 8 samples.

Results

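The hormone control of this *Xenopus* study consists of 4 two-color Agilent arrays, out of 8 arrays in all, and they were chosen by their sample titles. On each of them, Cy3 held RNA of animal caps that expressed hGR, the human glucocorticoid receptor without EBF3 attached, and that were treated with 30 µM dexamethasone (DEX). Cy5 held RNA of animal caps that expressed the fusion protein hGR-XEBF3 and received no DEX. The hGR caps came from embryos given 0.4 ng of hGR mRNA and the hGR-XEBF3 caps from embryos given 1 ng of hGR-XEBF3 mRNA, and all caps also carried 0.2 ng of Noggin mRNA. Caps were cut at stage 9, the blastula stage, and cultured for 4.5 hours with or without the hormone. The other 4 arrays, of active EBF3, had hGR-XEBF3 caps with DEX in Cy3 and the same kind of untreated hGR-XEBF3 caps in Cy5. The control asks which transcripts differ when hormone and receptor are present but active EBF3 is not. Hormone, injected protein, mRNA dose and dye all differ between the channels of a hormone control array, and dyes were not swapped, so the contributions of these factors cannot be told apart.

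The glucocorticoid receptor is a nuclear receptor that chaperones hold in the cytoplasm until a hormone such as DEX binds to it, and fusing its hormone-binding part to a transcription factor puts that factor under hormone control. Animal caps are the ectoderm of the blastula. BMP signals direct them toward epidermis and sustain ventral genes such as the *vent* and *gata* factors, and Noggin is a secreted protein that binds BMP ligands and lets the caps become neural.

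All 4 arrays carried the same 21495 probes, with 1 spot per probe in replicates 1 and 2 and 2 spots in replicates 3 and 4. Every value below is a log2 ratio of Cy3 to Cy5, so a positive value means more signal in hGR caps with DEX, and values for several arrays are in the order of replicates 1 to 4. The share of spots that the scanner software called well above background was 52.2% to 55.9% for Cy3 and 59.8% to 62.9% for Cy5. Median log2 ratios lay between -0.02 and 0.18. Over all probes, replicate 1 stood apart from the other hormone control arrays. Across 21256 probes, which are not independent replicates, its log2 ratios correlated with those of replicates 2, 3 and 4 at -0.05, -0.06 and 0.04, whereas replicates 2 to 4 correlated among themselves at 0.33 to 0.43. Over the 9484 probes well above background in both channels of all 4 arrays, these correlations were 0.21 to 0.28 and 0.25 to 0.41, so the ranges overlapped. The log2 ratios of these probes spread most on replicate 4, with SDs of 0.27, 0.34, 0.29 and 0.50. Replicate 1 was also read with an earlier version of the scanner software, as was the active EBF3 array of the same number. Replicates 3 and 4 of both sets of arrays, 4 arrays in all, shared 1 slide, and the other 4 arrays had a slide each.

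Markers of the tissue were present in both channels, but not by every probe. Of 5 neural and 5 epidermal marker probes, 3 of each were well above background in Cy3 and Cy5 on 4 of 4 arrays. They included *sox2* and *sox3*, genes of neural ectoderm, and the epidermal keratin *krt70*. A probe of the epidermal gene *tp63* (tp73l-A) was above background on 0 arrays in either channel, and the *ncam1* probe on 0 in Cy3 and 2 in Cy5. Of 5 probes for mesodermal markers, 2 were well above background in Cy3 on all arrays and 1 in Cy5. Markers of other tissues were also present, with 2 of 5 endodermal and 2 of 3 germ plasm probes above background in each channel. No probe was matched to the blood markers looked for. Summed over the 5 epidermal marker probes, the log2 ratio of the signals was 0.79, -0.23, 0.12 and -0.10, and over 2 probes of the ciliated cell regulator *foxj1* it was 2.12, -0.31, -0.56 and -0.11. Replicate 1 was the highest array in both sums. Over the 3 cement gland probes the log2 ratio of the sums was 0.00, -0.64, 0.13 and -2.50, the lowest of these on replicate 4. In bulk RNA, fewer cells of a type and less RNA per cell cannot be told apart.

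No probe passed the test over all 4 arrays. Limma tested 21256 probes against a log2 ratio of 0, and 0 were called higher and 0 lower (0% of probes in each direction) at an adjusted p under 0.05 and a mean change of at least 2-fold. The lowest adjusted p was 0.163. At an unadjusted p under 0.05 the 2-fold threshold was passed by 36 probes higher and 85 lower in limma, and by 3 and 26 in the methods' t-test. The methods do not give the form of that test. Here it set Cy3 against Cy5 log signals unpaired, so signal differences between arrays entered its error. Median Cy3 signals were 283, 170, 27.8 and 43.9. An exact permutation test of a single probe over 4 arrays cannot go below p = 0.125. When replicate 1 was left out, limma called 70 probes higher (0.326%) and 119 lower (0.554%) of 21483. Many of the higher calls were of dim probes. Both channels were well above background on all 3 remaining arrays for 10 of the 70 and 50 of the 119. Of all 21483 probes tested, this held for 10217, so the lower calls were near the share of all probes. Replicate 1 had the opposite sign for 24 of the 70 and for 27 of the 119, and it was 2-fold or more off 0 in the same direction for 4 and 20. Without the fold threshold, 3518 probes higher and 291 lower had a limma adjusted p under 0.05 in the fit without replicate 1. The lowest adjusted p of that fit was 0.0432, a value that many probes shared, and the median of its means was 0.13.

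Many of the highest values on replicate 1 belonged to ventral and epidermal genes. The gene that encodes Sizzled, a secreted inhibitor of the proteases that cleave Chordin and a classical response to high BMP signaling, had a log2 ratio of 6.27 on replicate 1, against -1.82, -0.66 and -0.75 on replicates 2 to 4. Its Cy3 signal was 24195 and its Cy5 signal 314 on that array. The active EBF3 array of the same experiment and software version had 82.0 in Cy3 and 163 in Cy5. Compared with that array, the Cy3 signal of hGR caps with DEX differed far more than the Cy5 signal. The dimmest spots called well above background on the active EBF3 array had 190 in Cy3 and 146 in Cy5. Its Cy3 value of 82.0 is thus a dim one, and its Cy3 caps also held active EBF3. A separate probe listed as frzb3 (sizzled) gave 4.99, -1.45, -2.40 and -2.01. High values of these probes were not limited to the hormone control, since on active EBF3 replicate 3 sizzled was at 2.31 (645 in Cy3 and 130 in Cy5), frzb3 (sizzled) at 3.03 and *vent-2* at 2.03.

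Transcription factors downstream of BMP showed the same split. The homeobox repressor *vent-2* was at 4.14, -0.91, -2.22 and -1.74, and on replicate 1 its signal was 15306 in Cy3 and 870 in Cy5. Its close copy *Xbr-1b* was at 3.99, -1.10, -1.43 and -0.95. Probes of *vent-2*, *Xbr-1b* and *xom* are near-identical family members and may share signal. For *xom* the values were 2.38, -0.69, -1.91 and -1.46. For each of these probes replicate 1 was the only array above 0.

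Among the GATA factors of ventral ectoderm, *gata2* was at 3.60, -2.44, -1.42 and -1.87 and *gata3* at 4.22, -2.98, -1.76 and -1.85. On replicate 1, *gata2* had 9032 in Cy3 and 744 in Cy5. The T-box gene *tbx3* was at 3.55, -0.80, -0.82 and -1.60. Cy3 was well above background on 4 of 4 arrays for *gata2*, 3 for *gata3* and 2 for *tbx3*, so some of the values below 0 rest on dim spots. Each of these genes was above 0 on replicate 1 alone among the hormone control arrays, and *gata3* and *tbx3* were above 0 on all 4 active EBF3 arrays, with means of 4.14 and 3.18. The ciliated cell regulator *foxj1* was at 3.58, -1.15, -0.71 and -0.12 by its probe foxJ1, while the second probe of the gene, foxJ1', was at 0.27, 0.29, -0.14 and -0.09, so the probes disagreed. Keratin *krt70* was at 1.71, -1.64, -2.11 and -1.18 by the probe krt1-2, and at 0.78, -0.22, 0.13 and -0.09 by its second probe.

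Not every gene of this kind followed. The forkhead gene *XFD2* was at 3.55, 0.19, 0.20 and 1.00, above 0 throughout. A probe like *bambi*, a pseudoreceptor that BMP induces, was at 3.11, -0.18, 0.41 and 0.96, and the inhibitory Smad *smad7* was at 1.60, -0.36, -0.23 and 0.01. By contrast, *id4* had 0.31 on replicate 1, *id3-like* -0.36, *foxi2* 0.02, *smad6* 0.52 and *bmp7* 0.48. The probe of *bambi* itself had no usable spot on replicate 1. BMP targets that stayed near 0 on replicate 1 thus included members of the Id family, which inhibit bHLH factors.

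To describe the group as a whole, 31 probes of ventral and epidermal genes were collected by name after these values had been seen, so the counts below are a description and no test was made. Of the 30 with a value on every array, 16 were 2-fold or more higher on replicate 1 and 0 were lower. Over all probes, 0.659% were 2-fold higher on that array. All 16 were well above background in Cy3 there, and 11 of them were below 0 on replicates 2, 3 and 4 alike. The medians of the set were 1.44, -0.36, -0.36 and -0.33 on the hormone control arrays and 0.25, 0.36, 0.75 and -0.34 on the active EBF3 arrays. Seen from the other side, 20 probes were at least 4-fold higher and well above background in Cy3 on replicate 1, and 13 of them belong to the set. The same threshold took 16, 11 and 54 probes on replicates 2, 3 and 4, with 0 of the set on each of these. The choice of the set shaped these counts. In gene lists matched by name, smaller shares of the probes above background were 2-fold higher on replicate 1. They were 3 of 19 for epidermis, 3 of 29 for BMP and TGF-beta, 0 of 10 for ionocytes and 1 of 4 for multiciliated cells. Over all such probes the share was 0.432%.

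**Figure D1:**
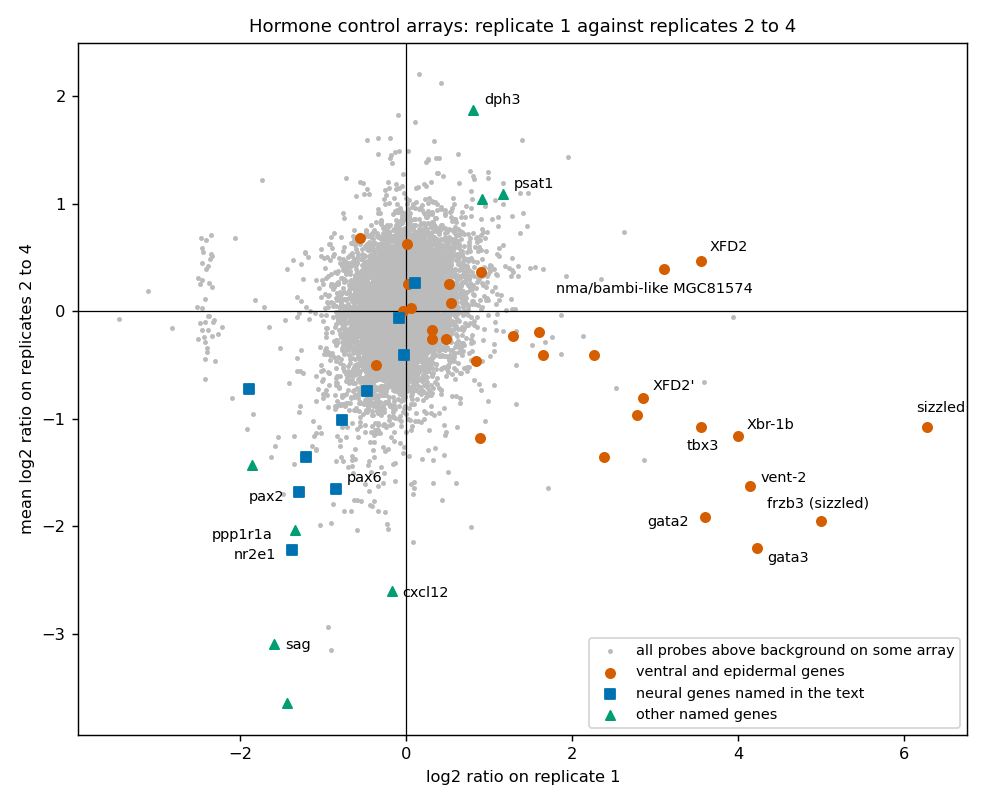
Each point is a probe, with its log2 ratio on hormone control replicate 1 on the x axis and the mean of its log2 ratios on replicates 2 to 4 on the y axis (15685 probes well above background on some array in grey). Ventral and epidermal genes (orange) spread to the lower right, up to 6.27 for sizzled, while nr2e1, pax2 and ppp1r1a lie below 0 on both axes.

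Replicate 4 differed from the others in another group, the genes of the anterior neural plate and eye. The eye and forebrain regulator *pax6* was at -0.85, -0.70, -0.26 and -4.00, with 211 in Cy3 and 3387 in Cy5 on replicate 4. The orphan receptor gene *nr2e1*, which acts in forebrain and retina, was at -1.38, -1.31, -1.58 and -3.78. The midbrain boundary gene *pax2* was at -1.29, -1.11, -1.12 and -2.81. All 3 genes were lowest on replicate 4. They were below 0 on every array, but the rules that named them required 1 sign on all arrays.

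Some other neural genes crossed 0 between arrays. The retinal homeobox gene *rx2a* was at -0.62, -0.49, 0.88 and -2.73, *six3* at -0.33, -0.32, 0.35 and -1.85, and *zic5* at -0.62, -1.53, 0.18 and -2.51. Replicate 3 was the only array above 0 for these. The adhesion molecule *NCAM*, an early mark of neural tissue, was lowest on replicate 4, at -1.21, -0.71, -0.49 and -2.85. It too was named by a rule that required 1 sign on all arrays. The panneural factors lay closer to 0, with *sox2* at -0.33, 0.34, -0.05 and -0.93 and *sox3* at -0.08, -0.02, -0.16 and 0.00. The cement gland gene *agr2* was at 0.02, -0.61, 0.14 and -2.54.

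Of the neural plate list, 18 probes were well above background in both channels on all arrays. Their medians were -0.33, -0.04, -0.11 and -0.82, and 8 of the 18 were 2-fold or more lower on replicate 4, where 2.65% of all such probes were. The median of the list over the 4 arrays was -0.35 and became -0.12 without replicate 4. Replicate 4 also had the highest values of 4 regulators of the early cell cycle that the egg stores as mRNA, which were picked after their values had been seen. Of the whole cell cycle list, 7 of 83 probes were 2-fold or more higher on that array and 3 lower, with a median of 0.07, against 2.63% and 2.65% of all probes above background. *Cyclin A1* was at 0.30, 0.10, 0.29 and 1.96, *cyclin B4* at 0.58, 0.81, 0.22 and 1.56, *cyclin B5* at 0.34, 0.14, 0.43 and 1.75, and the mitotic inhibitor kinase *wee1A* at 0.45, 0.43, 0.36 and 1.19. These 4 genes were above 0 on every array, but the rule that named them required 1 sign on all arrays. On the active EBF3 array of replicate 4, which has the same kind of untreated caps in Cy5, *pax6* was at -3.12, *NCAM* at -2.47 and *nr2e1* at -0.44. *Cyclin A1* was at 2.67 there, *cyclin B4* at 1.80, *cyclin B5* at 3.40 and *wee1A* at 1.84. Among the active EBF3 arrays, *NCAM* and *nr2e1* were lowest and the cyclins highest on replicate 4, but *pax6* and *wee1A* were not. On active EBF3 replicates 1 to 3, *pax6* was at -2.28, -3.97 and -2.44 and *wee1A* at 1.24, 2.09 and 1.28. Whether the neural and the cyclin values of replicate 4 have a common source was not tested.

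Probes that lay off 0 the same way on all 4 arrays with both channels well above background numbered 1465 higher (15.4%) and 1331 lower (14%) of 9484. With a mean of at least 1.5-fold, 63 were higher (0.664%) and 149 lower (1.57%). Centering each array on its median log2 ratio changed this split to 28 higher and 242 lower. The size of the mean depended on replicate 4, which had the largest absolute value for 34 of the 63 and 104 of the 149. Without replicate 4 the counts were 47 and 98, and without replicate 1 they were 155 and 271. Only 30 of the 212 were at least 1.5-fold off 0 on each array separately, 8 of them higher and 22 lower. Of the 212 probes, 28 higher and 87 lower ones have a gene name.

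Among the probes with a mean of 2-fold or more, *psat1*, which encodes phosphoserine aminotransferase of serine synthesis, had little spread. Its log2 ratios were 1.17, 1.32, 0.96 and 0.99, a mean of 1.11 ± 0.17 (SD, n = 4) or 2.16-fold. Signals were 540, 774, 665 and 1286 in Cy3 against 241, 310, 341 and 647 in Cy5, so Cy3 was above Cy5 on every array. In limma the adjusted p was 0.163 over all probes and 0.0363 over the 9484 probes above background.

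The secreted Wnt inhibitor *wif1* was at 0.91, 1.10, 1.20 and 0.84, a mean of 1.01 ± 0.16, with a limma adjusted p of 0.0363 over the 9484 probes. Without replicate 1 both *psat1* and *wif1* were called over all probes (limma adjusted p = 0.0432 for each, the shared lowest value), with means of 1.09 and 1.05. A galactosyltransferase-like gene was at 1.11, 0.98, 0.95 and 0.69, under the 2-fold threshold. The gene *dph3*, of diphthamide synthesis, had the highest mean of the named probes, with 0.81, 1.59, 2.16 and 1.86, and *hand2*, a bHLH factor of heart and branchial arches, was at 0.64, 0.72, 1.35 and 1.51. Both were above 0 on all arrays, which the rule that named them required, and replicate 1 had the lowest value of each.

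In other high means 1 array stood far above the rest. Of the named probes with the 15 highest means, *XFD2* and the Notch ligand probe delta-like (2.63, 0.60, 1.15 and 0.47) were highest on replicate 1, and the Wnt antagonist *dkk1* (0.32, 0.19, 0.46 and 2.10) and a gastrula-specific protein kinase (0.81, 0.92, 0.58 and 2.18) on replicate 4. Without replicate 1 the means were 0.46 for *XFD2* and 0.74 for delta-like. The second had the shared lowest limma adjusted p of that fit, 0.0432, but was under 2-fold. Small but even values were found as well. The endoplasmic reticulum chaperone *hspa5* was at 0.75, 0.57, 0.69 and 0.66, and the RNA-binding protein gene *seb4* was at 0.60, 0.57, 0.60 and 0.64. Both stayed at the adjusted p of 0.163 in limma.

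On the lower side, *ppp1r1a*, an inhibitor of protein phosphatase, was at -1.34, -1.91, -1.81 and -2.39, a mean of -1.86 ± 0.43 (SD, n = 4). Its signals were 339, 643, 515 and 1264 in Cy3 against 856, 2411, 1807 and 6640 in Cy5. The nucleotidase gene *nt5c3a* was at -1.85, -1.06, -1.48 and -1.74. The ubiquitin ligase gene *marchf8* (-1.11, -1.35, -1.33 and -0.79), the pseudokinase gene *prag1* (-0.80, -1.19, -1.31 and -1.26) and the clone MGC82199 (-0.77, -1.17, -0.99 and -1.08) were also low on each array. These 5 were the only probes called lower among the 9484 above background, with limma adjusted p between 0.0363 and 0.0436. The 2 called higher were *psat1* and *wif1*. On the active EBF3 arrays, most of these probes had means of the same sign and larger absolute value. There the means were -3.30 for *ppp1r1a*, -2.57 for *nt5c3a*, -1.85 for *marchf8*, -2.50 for *prag1* and 2.05 for *wif1*. The exceptions were *psat1* at -0.03 and MGC82199 at 1.73. No difference between the sets was called for *ppp1r1a*, *nt5c3a*, *marchf8* or *wif1* in the fit without a replicate block. With the replicate as a block, the *wif1* difference of -1.04 was called (limma adjusted p = 0.0316), and those of the other 3 were not.

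A chimaerin-like probe had the smallest spread among the large negative means, with -1.48, -1.62, -1.76 and -1.72. Only 2 of its 4 Cy3 signals were well above background. It was the 1 probe that limma called in the authors' table of log ratios, with an adjusted p of 0.0283. The arrestins were lower still. S-arrestin, *sag*, which quenches photoreceptor signaling in the eye, was at -1.59, -2.93, -4.09 and -2.26, and an arrestin-like clone, MGC84416, was at -1.44, -2.71, -4.71 and -3.51. Their Cy3 signals were well above background on 2 and 1 of the arrays, so these ratios are partly bounds set by dim spots.

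Several other probes with low means varied more between arrays. The chemokine gene *cxcl12* was at -0.17, -2.28, -3.49 and -2.04, so replicate 1 was close to 0 and the others were not. The sodium channel subunit *scn3b* was at -0.41, -1.66, -1.13 and -2.64. The intermediate filament genes of neurons, *peripherin* and *ina*, were at -0.39, -1.39, -1.61 and -2.30 and at -1.89, -0.28, -0.72 and -1.18. The adhesion gene *nectin1* was at -0.75, -1.14, -1.53 and -1.50 and the potassium channel *kcnj1* at -0.59, -0.83, -1.28 and -1.19. These varied less, with SDs of 0.36 and 0.32, under the 0.43 of *ppp1r1a*. A probe like the apelin receptor was at -1.58, -1.67, -1.94 and -0.15, with replicate 4 as the exception.

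**Figure D2:**
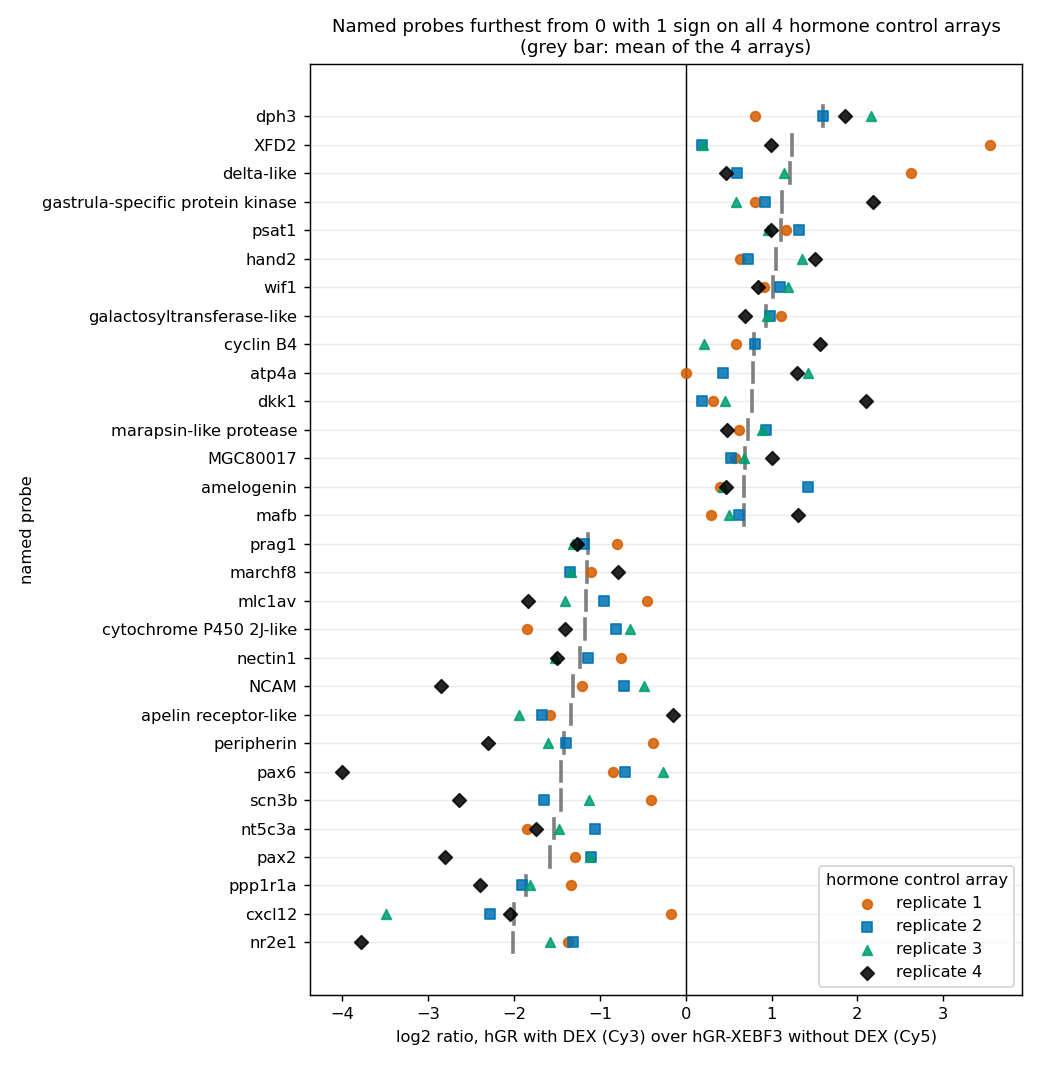
Log2 ratios of hGR with DEX (Cy3) over hGR-XEBF3 without DEX (Cy5) on the x axis for the 15 highest and 15 lowest named probes with 1 sign on all 4 hormone control arrays, with a grey bar at the mean. Points of psat1, wif1 and marchf8 lie close together, whereas XFD2 reaches 3.55 on replicate 1 and pax6 reaches -4.00 on replicate 4.

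No gene list lay off 0 the same way on all arrays with all of its members. The lists were matched by gene name, and their counts, made without centering, are read against the 15.4% higher and 14% lower of all probes above background. Those shares become 5.95% and 23.4% when each array is centered on its median, and the list counts were not repeated on centered values. In the FGF list 6 of 11 probes were lower on every array and 2 higher, with a median of -0.24. The higher ones included *tdgf1.3*, listed under the name FRL1, at 0.04, 0.54, 0.09 and 0.80. The ligand *fgf8* was at -0.40, -1.01, -0.36 and -1.54, and both probes of the feedback inhibitor *spry2* were below 0 throughout, with means of -0.47 and -0.35. In the BMP and TGF-beta list 8 of 29 were lower and 3 higher. Its lower members included both sides of the pathway, with the antagonist *chrd.1* at -0.83, -0.77, -0.50 and -1.39, the receptor *bmpr1a* at -0.40, -0.68, -0.75 and -1.14, and the organizer ligand *admp* at -0.70, -1.31, -0.22 and -0.66. None of these was called over all 4 arrays.

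In the Notch list 4 of 16 probes were lower on every array and 0 higher. They were the receptor *notch1* with a mean of -0.28, the ligand *jag1* with -0.37, the nuclear effector *rbpj* with -0.52 and the feedback gene *nrarp* with -0.19. The Notch ligand probe delta-like, at 2.63, 0.60, 1.15 and 0.47, was not matched to this list, so these counts leave it out. In the Wnt list 4 of 19 were higher and 0 lower. Besides the inhibitors *wif1* and *dkk1*, they were the coreceptor *lrp5* with 0.23 and the transducer *dvl2* with 0.22. The cell cycle list, of 83 probes, divided into 20 higher and 19 lower. Of 27 ribosomal protein probes, 6 were lower and 0 higher, with a median of -0.09. Of 27 heat shock and chaperone probes, 4 were higher and 3 lower. The nuclear receptor and retinoid list had 7 of 18 probes higher and 2 lower, and the list of gluconeogenesis and glycolysis 5 of 16 higher and 1 lower. Of the neural plate list, 4 of 18 were lower and 0 higher.

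Genes with a known link to glucocorticoids had means between -0.47 and 0.64. On replicate 4, 3 of 14 such probes were 2-fold or more higher and 1 lower, where 2.63% and 2.65% of all probes above background were. Of the 14, 3 were higher on every array and 1 lower, with a median of 0.13 that became 0.03 after centering. The median of all probes above background moved down as well, from 0.02 to -0.08. The glucocorticoid receptor gene *nr3c1* itself was at 0.01, 0.47, 0.74 and 1.32 by the probe gcr-A and at 0.34, 0.46, 0.11 and 0.28 by the probe xGR, so its probes gave different sizes. The clock gene *per2* was at 0.30, 0.23, 0.24 and 0.14, and the receptor cochaperone *ptges3* at -0.37, -0.40, -0.47 and -0.39. The circadian list had 4 of 10 probes higher and 0 lower. Its median of 0.24 became 0.13 after centering, a downward move shared by all probes above background. Of the 4 higher probes, 2 were of *cry1*, a repressor of the clock, with means of 0.38 and 0.26. No member of either list was called.

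**Figure D3:**
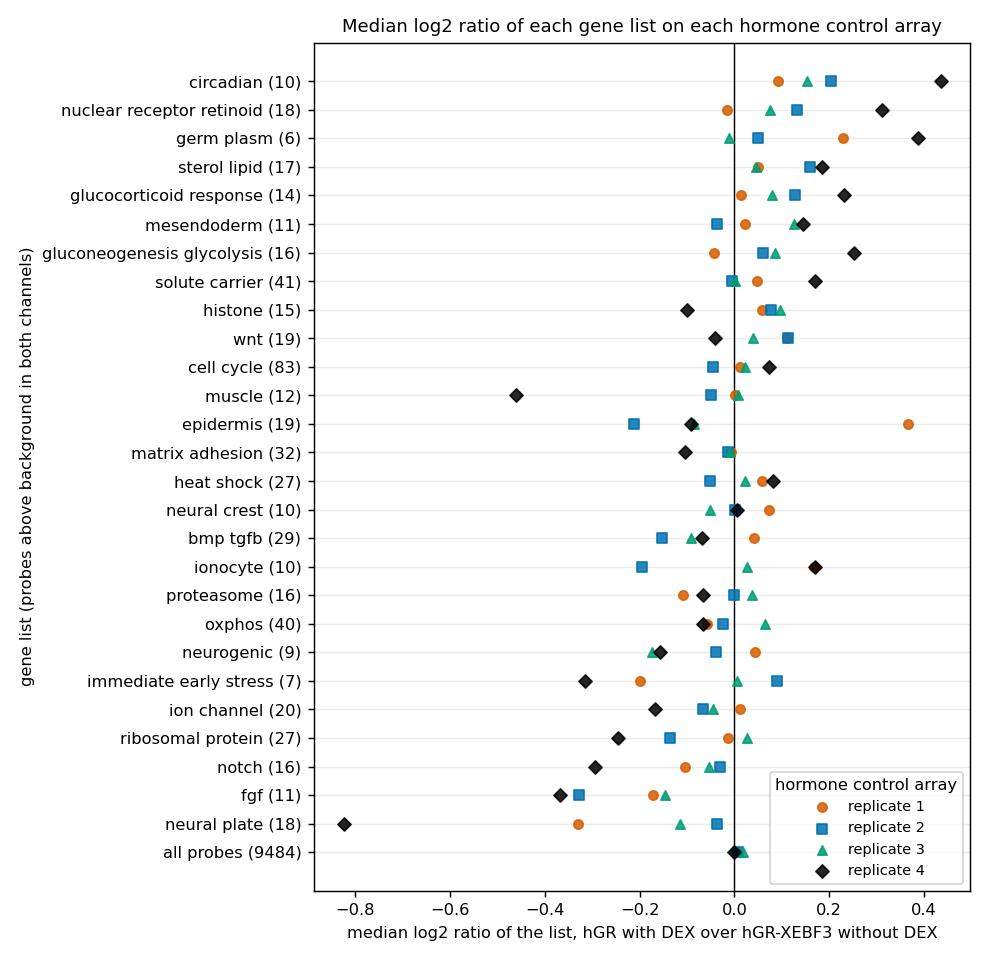
Median log2 ratio of each gene list on each hormone control array (x axis, hGR with DEX over hGR-XEBF3 without DEX), with the number of probes above background in both channels in brackets. The medians of all 9484 probes lie close to 0, the neural plate list reaches -0.82 on replicate 4, and the epidermis list stands at 0.37 on replicate 1 and below 0 on the others.

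Set against the active EBF3 arrays, the hormone control arrays were called higher for 306 probes (1.44%) and lower for 513 (2.42%) of 21197 in limma. The 819 calls became 363, 408 and 516 without replicates 2, 3 and 4. The 2 sets of arrays share the kind of caps in Cy5, the DEX treatment in Cy3 and the order of the dyes. For a value that both sets have in common, these factors cannot be told apart. Of the 63 probes that were higher on all 4 hormone control arrays, 8 differed from the active EBF3 arrays, 6 of them with the hormone control higher. Of the 146 lower ones that could be compared, 33 differed, 14 with the hormone control higher and 19 with it lower. These probes were chosen by their hormone control ratios, which also enter the differences, so the choice shapes these counts. Among the 9024 probes well above background in both channels on all 8 arrays, 296 were called higher and 303 lower.

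Values away from 0 on the hormone control arrays and near 0 on the active EBF3 arrays were found for a few genes. For *psat1* the mean was 1.11 ± 0.17 on hormone control arrays and -0.03 ± 0.22 on active EBF3 arrays (SD, n = 4 each). The difference was 1.14 (95% interval 0.76 to 1.52, limma adjusted p = 0.00545). For *dph3* the means were 1.60 ± 0.58 and -0.35 ± 0.18 in the same order, a difference of 1.95 (1.31 to 2.59, limma adjusted p = 0.00506). These differences, and those below unless stated, come from the fit without a replicate block. With the replicate as a block, the limma adjusted p was 0.014 for *psat1* and 0.0262 for *dph3*. The Cy3 signals of *dph3* were 120, 10.2 and 14.9 on active EBF3 replicates 2 to 4. The dimmest Cy3 spots called well above background on those arrays had 133, 21.9 and 25.1. The active EBF3 side of the *dph3* difference thus rests partly on dim spots. With 3 replicates left, the call of *psat1* was lost without replicate 2 or 3 (limma adjusted p = 0.0661 and 0.0603), and that of *dph3* without replicate 2, 3 or 4 (0.0736, 0.052 and 0.0639). Within the slide that holds replicates 3 and 4 of both sets, the *psat1* difference was 0.96 and was not called (limma adjusted p = 0.222). There *dph3* was called, with dim Cy3 spots on the active EBF3 side. For *nr2e1* they were -2.01 ± 1.18 and 0.39 ± 0.59, a difference of -2.40 (-3.70 to -1.11) that was not called (limma adjusted p = 0.0521), although it was with the replicate as a block (adjusted p = 0.0109).

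Other genes had values of the same sign on both sets of arrays. The arrestin-like clone had a mean of -3.09 on hormone control arrays and -3.20 on active EBF3 arrays, a difference of 0.11 (95% interval -1.66 to 1.88). For *sag* the means were -2.72 and -2.69, a difference of -0.03 (-1.32 to 1.26). With Cy3 of the hormone control well above background on 1 array for the clone and 2 for *sag*, these means and differences rest partly on dim spots. The galactosyltransferase-like gene had means of 0.93 and 1.08, a difference of -0.15 (-0.77 to 0.47). These intervals are wide, so no difference was detectable with 4 arrays each, and equal values are not shown. For *prag1* the means were -1.14 and -2.50, and the difference of 1.36 (0.97 to 1.75) was called with a limma adjusted p of 0.0026, but not within the shared slide, where it was 1.15 (limma adjusted p = 0.106).

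A last group had opposite signs on the 2 sets. A marapsin-like protease had a mean of 0.73 ± 0.22 on hormone control arrays and -1.66 ± 0.63 on active EBF3 arrays, a difference of 2.39 (1.70 to 3.09, limma adjusted p = 0.00262). *Peripherin* had -1.42 ± 0.79 and 5.19 ± 0.30, *mlc1av*, a muscle myosin light chain, had -1.16 ± 0.60 and 2.43 ± 0.42, and *fgf8* had -0.83 ± 0.56 and 1.80 ± 0.23. The Hedgehog effector *gli2* had -0.92 ± 0.61 and 1.70 ± 0.53. All 4 of these were called lower on the hormone control arrays, with limma adjusted p of 0.00406 or less.

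**Figure D4:**
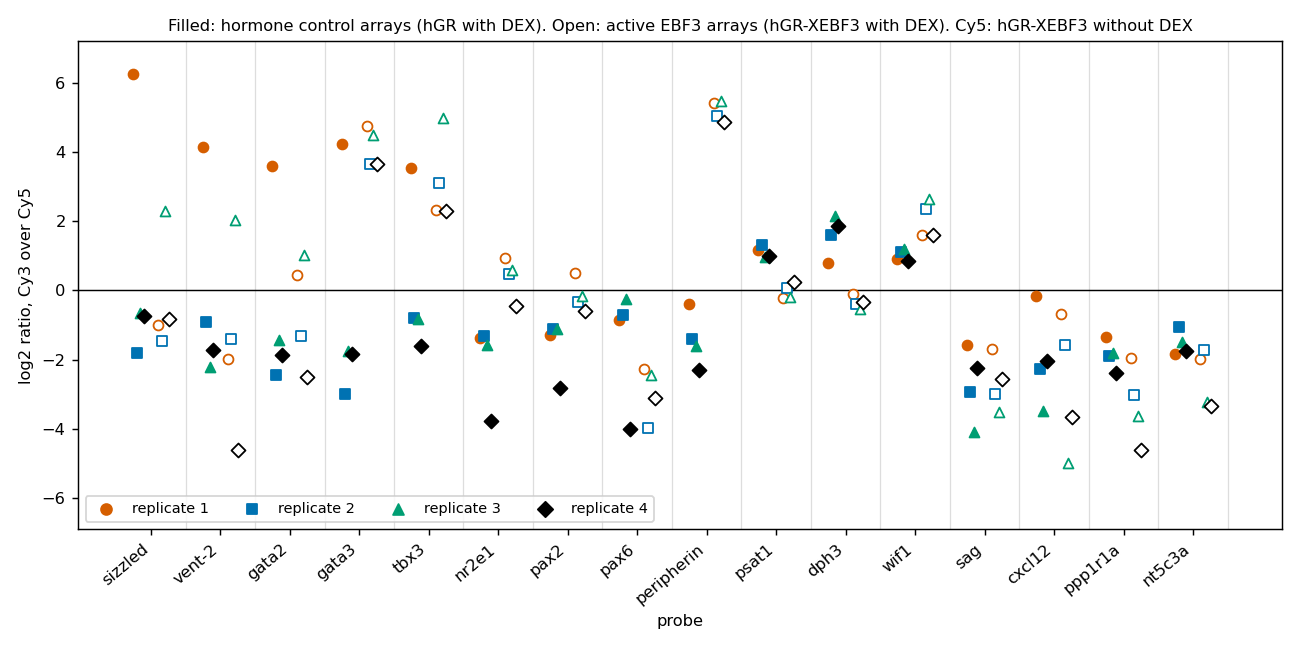
Log2 ratios of Cy3 over Cy5 (y axis) for 16 probes on the hormone control arrays (filled symbols, left of each pair) and on the active EBF3 arrays (open symbols, right), with 1 symbol shape per replicate. For sizzled, vent-2 and gata2 replicate 1 is the only hormone control array above 0 while active EBF3 replicate 3 stands at 2.31, 2.03 and 1.03, psat1 and dph3 lie above 0 on the hormone control arrays and near or below 0 on the active EBF3 arrays, and sag and cxcl12 are below 0 on both.

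The injected genes could not be checked on these arrays. The *ebf3* probe was at -0.79, 0.78, 0.90 and 0.42 and was well above background in neither channel, although hGR-XEBF3 mRNA was in every Cy5 sample, so it gives no check of the injected mRNA. The *noggin* probe was also above background in neither channel. Of the *ebf2* probes, ebf2-B was above background throughout, at 0.04, -0.04, -0.48 and 0.08. Among the 14 genes that the study selected as EBF3 targets, which it chose on the active EBF3 arrays of this series, 3 were above background in both channels here. Of these, *peripherin* and the activin subunit *inhbb* (-0.72, -0.71, -0.41 and -1.43) were below 0 on every array. The third, *kcnk5*, lay on both sides of 0, at 0.35, -0.27, 0.01 and -0.18.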

How the data were processed

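The authors deposited scanner output of 8 two-color arrays, whose processed signals are intensities after background correction and LOWESS dye normalization in Feature Extraction (versions 8.1.1.1 and 9.1.3.1 per the file headers), with surrogate values for dim spots. The deposited log10 ratios, of the scanner and of the authors' table, hold the same arrays. The log2 ratio of Cy3 over Cy5 was taken for each spot in R 4.3.3 with version 1.17.8 of data.table. Control spots and non-uniform spots were left out and spots of a probe averaged, without centering, so 228 probes had no value on replicate 1. Means were tested with limma 3.58.1 against 0, and against the active EBF3 arrays, with Benjamini-Hochberg adjustment. The methods' t-test, other normalizations, filters, thresholds, blocks for array design, replicate number and slide, and single arrays left out were alternatives.

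Deviations from the group means correlated between same-numbered arrays (r = 0.591, 0.493, 0.366 and 0.574 across 21197 probes, against -0.339 to 0.0483 otherwise), and the methods name 4 replicate experiments, so the numbers pair the samples.

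Members and gene lists were chosen with earlier results of these data known. Named genes were the *ebf* and *noggin* probes, the study's 14 genes, the 15 highest and 15 lowest named means with 1 sign on 4 of 4 arrays and both channels above background, up to 4 per list, and the 5 highest and 5 lowest calls without replicate 1. Ventral, anterior neural and some other probes were added after their values were seen. Probe names come from the array design, with 1418 probes matched by gene number to RefSeq. The number of arrays, and signal above background for dim probes, limit precision.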

Additional observations from a re-analysis of the deposited data

Results flagged for a closer look

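Of 167 named probes with 4 values, 20 (12%) had an array far from the other 3, where chance gives about 1 in 20. The gap was on replicate 4 for 11 probes, on replicate 1 for 7, on replicate 2 for 2 and on replicate 3 for 0. Many of these probes were picked because of such values, so the share describes the choice as well as the arrays.

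On replicate 1 the far values were all high and all of ventral or epidermal genes, a group to which probes were added after their values had been seen. *Sizzled* was at 6.27 and its second probe, frzb3 (sizzled), at 4.99, *gata3* was at 4.22, *Xbr-1b* at 3.99, *gata2* at 3.60, *tbx3* at 3.55 and *dlx5* at 1.29. All 7 were below 0 on replicates 2 to 4.

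On replicate 4 the far values were low for *pax6* (-4.00), *nr2e1* (-3.78), *pax2* (-2.81), *rbpj* (-1.07), the amino acid transporter *slc7a8* (-1.05) and the ribosomal protein probes aw200559 (-0.90) and aw765547 (-0.63). They were high for *dkk1* (2.10), *cyclin A1* (1.96), *emx1* (1.32) and *wee1A* (1.19). The *emx1* probe was well above background on 2 of 4 arrays in each channel.

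On replicate 2 an amelogenin probe was at 1.42 and the chaperone *hspd1* at 0.53, each above the other arrays.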

How the results depend on the processing

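Against 0, limma called 0 probes over all 4 arrays. It also called 0 after centering, with normexp and loess and with non-uniform spots kept. Array weights, the array design as a block and a 1.5-fold threshold gave 0 as well. The t-test also called 0, but it was run unpaired between channels. Signal differences between arrays entered its error, so its 0 calls are no check of the limma result. Leaving out 1 array in limma gave 0 to 189 calls (0 to 70 higher, 0 to 119 lower), and every call came from leaving out replicate 1. The 9484 probes above background gave 7 (2 higher, 5 lower) and the log ratios of the authors gave 1, which was lower. Slide as a random block could not be fitted with 4 arrays on 3 slides. Fitted over all 8 arrays, an alternative chosen after seeing the data, it gave 0 calls with a lowest limma adjusted p of 0.0895. Against the active EBF3 arrays there were 819 calls, and 363 to 793 without 1 replicate (97 to 292 higher, 265 to 501 lower). With the replicate as a block, which the pairing of the numbers allows, there were 912 (363 higher, 549 lower). Probes above background gave 599 of 9024 (296 higher, 303 lower). After seeing the data, slide was added as a random block, which gave 924 (356 higher, 568 lower), and the 4 arrays of the shared slide were fitted alone, which gave 690 (229 higher, 461 lower). The differences of *nr2e1*, *wif1*, *pax2* and *scn3b*, among others, were called with the replicate as a block and not without it.

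The 212 probes with 1 sign and a 1.5-fold mean became 145 to 426 when 1 array was left out (47 to 155 higher, 98 to 271 lower). They became 36 at 2-fold (8 and 28), 28 higher and 242 lower after centering, and 109 with normexp and loess (16 and 93). The ventral and epidermal median on replicate 1, an alternative chosen after seeing the data, was 0.85 with normexp and loess, 1.47 after centering and 1.60 among probes above background.

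Means near 0 changed sign. Leaving out 1 array gave -0.157 to 0.0273 for *ebf2-B*, -0.355 to 0.0202 for *pcdh8*, -0.147 to 0.0587 for kcnk5 (BC084931) and -0.102 to 0.263 for *nhlh1*. *Nhlh1* was at -0.00016 after centering and -0.0343 with normexp and loess, *actn3* at -0.0015 after centering, and neurod (MGC82572) at -0.0356 and *noggin* at -0.0625 with normexp and loess. Slide as a random block over 8 arrays gave -0.0706 for *ebf3* and 0.00693 for *sox3*. The causes were not tested. Dim probes limit the rest, since their ratios can rest on surrogate values.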
